A study of Mus musculus with 1049 samples.

Results

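Platelet-derived growth factor (PDGF) receptors and secreted growth factors of the mouse skin were followed through age in single dermal fibroblasts. The 7 genes were chosen by name: the receptor genes Pdgfra and Pdgfrb and the growth factor genes Fgf7, Hgf, Bdnf, Fgf10 and Vegfa. All 7 were found among the 51777 genes common to the count tables, and all 7 were among the 16684 genes that had enough reads to be tested. The cells came from C57Bl/6 mice of 3 ages: newborn mice of 1.5 or 2.5 days, young mice of 2 months and old mice of 18 months. Each age was profiled in 2 experiments. The cells were sorted from dissociated skin after staining for CD45, CD117, EpCam, CD31, CD34 and Pdgfra, and sequenced with Smart-seq2, which copies polyadenylated RNA along its length and adds no molecular identifiers. The labels name female littermates for the newborn sort and describe a larger antibody panel for newborn subpopulations, and they name experiments but no mice, so the spread between experiments may be technical. Pdgfra protein was among the stained markers, so the level of Pdgfra RNA was read in cells from a sort that used its own product.

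PDGF receptors are receptor tyrosine kinases that mark mesenchymal cells. Pdgfra, which binds most PDGF dimers, is the usual surface marker of dermal fibroblasts, and Pdgfrb, which responds chiefly to PDGF-BB and PDGF-DD, is found on fibroblasts and is strong on pericytes. Fgf7 (keratinocyte growth factor) and Fgf10 act from the mesenchyme on epithelial cells through an epithelial splice form of Fgfr2. Hgf, also mesenchymal, acts through Met; Bdnf is a neurotrophin that acts through Ntrk2; Vegfa drives the growth of blood vessels through Kdr.

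A total of 735 cells were kept of 861 wells on 9 plates, each plate with all 3 ages. Experiment 1 had 5 of the plates and experiment 2 had 4. These were 158 and 91 newborn cells in experiments 1 and 2, 142 and 104 young cells, and 126 and 114 old cells. Kept cells held 246349 to 4331293 reads on genes. The cells of an age in an experiment were pooled by adding their reads, and these 6 sums held between 119682449 and 195324769 reads; levels are CPM (read counts scaled to library size, as edgeR gives them) of these sums with TMM factors, as mean ± SD of n = 2 sums per age. Shares of cells with a read were taken after each cell was thinned to 100000 reads, since detection rises with depth. At that depth experiment 2 had more genes per cell at every age: for experiment 1 the medians were 1804.5 in newborn, 1645.5 in young and 1507.5 in old cells, and for experiment 2 they were 2225, 2036 and 1699.5. The summed level of 6 fibroblast markers was 66222 to 183819 CPM in the 6 sums, against 5.64 to 81.9 CPM for 6 endothelial 31.2 to 174 CPM for 9 mural and 18.9 to 70.9 CPM for 5 keratinocyte markers. The 6 immune markers summed to 1.48 and 0.716 CPM in newborn, 176 and 43.8 CPM in the young and 22.1 and 25.4 CPM in the old sums, with Ptprc, Cd3e and Adgre1 at 0 reads throughout. Only 6 kept cells held a read of Ptprc, Kit, Epcam or Pecam1, and without them the same 2 of the 7 genes passed the test described next. That step could not remove cells that held reads of other immune markers alone. In sums of cells, fewer cells with a transcript and less transcript per cell cannot be told apart, so each level is given with the share of cells.

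Of the 7 genes, 2 passed the test in any comparison, both between old and newborn cells: Hgf was higher in old cells and Bdnf was lower. The test was edgeR's quasi-likelihood test on the 6 sums, with Benjamini-Hochberg adjustment over all genes tested and a threshold of 0.05. In that comparison 0.935% of all genes tested passed, 0.797% as higher and 0.138% as lower in old cells. Between young and newborn cells 0 of the 7 genes passed, against 0.779% of all genes (0.719% as higher and 0.0599% as lower in young cells), and 4 had an unadjusted p under 0.05; DESeq2 called 3 of the 7 and limma 2. Over all genes tested, 13.3% had an unadjusted p under 0.05 there, DESeq2 called 14.1% and limma 6.55%. Between old and young cells 0 of the 7 passed, the share of all genes that passed was 0%, and 2 of the 7 and 4.85% of all genes had an unadjusted p under 0.05; DESeq2 called 2 of the 7 and 6.28% of all genes there. Hgf and Bdnf passed the filter on low counts only through the ages in which they were read.

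**Figure D1:**
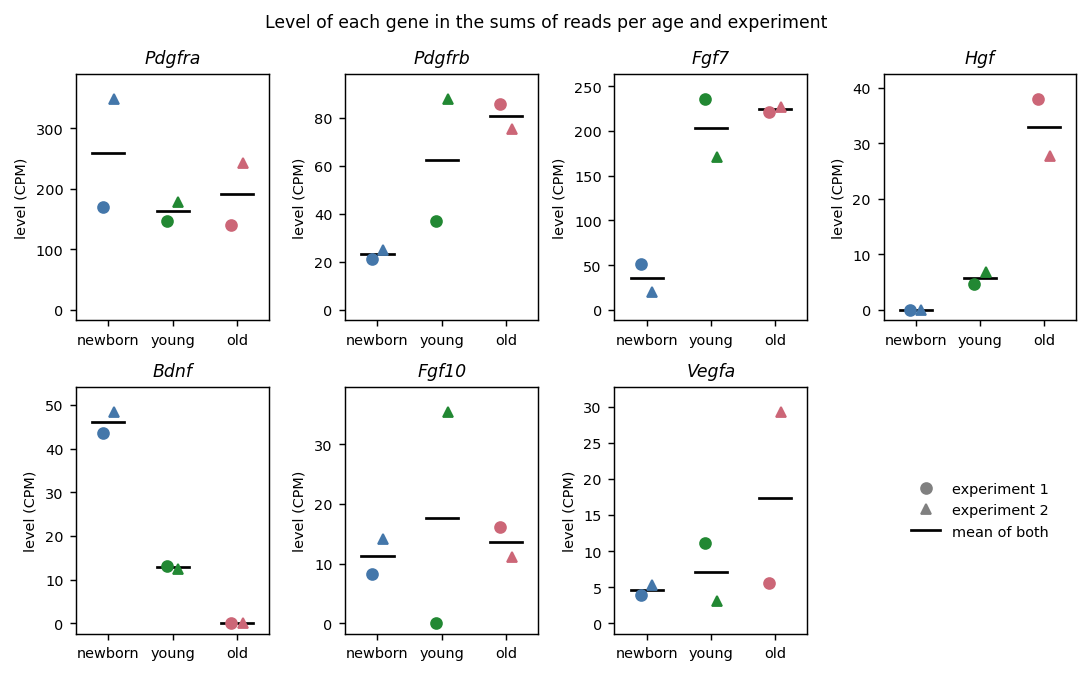
Level of each gene in CPM (vertical axis, linear, one scale per panel) in newborn, young and old sums (horizontal axis). Circles are experiment 1, triangles experiment 2 and lines the mean of both; Hgf lay at 0 in both newborn sums and Bdnf at 0 in both old sums, and newborn Fgf7 lay at 50.9 and 20.4 CPM, under all 4 adult sums.

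The starts of the 2 called genes are shown because their reads ran in opposite directions with age. The sequences are the 250 bases before the first annotated base of each gene on the plus strand, from RefSeq on GRCm38.p6, with CpG dinucleotides in capitals. Hgf is at chr5:16553245-16553494 and Bdnf at chr2:109674450-109674699.
Hgf: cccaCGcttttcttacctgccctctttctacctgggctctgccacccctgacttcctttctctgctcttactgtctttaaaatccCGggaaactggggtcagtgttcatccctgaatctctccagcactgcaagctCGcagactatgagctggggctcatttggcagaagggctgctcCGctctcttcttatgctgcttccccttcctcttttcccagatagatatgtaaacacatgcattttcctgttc
Bdnf: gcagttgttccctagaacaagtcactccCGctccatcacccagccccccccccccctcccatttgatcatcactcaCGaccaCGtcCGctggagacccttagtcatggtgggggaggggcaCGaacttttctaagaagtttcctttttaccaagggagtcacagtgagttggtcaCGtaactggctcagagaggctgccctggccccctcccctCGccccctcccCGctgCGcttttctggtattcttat
The Hgf window held 4 CpG dinucleotides and 50.8% G and C, and the Bdnf window held 9 and 58.0%; the medians of 32851 windows of this length were 6 and 52.4%. The TATA box letters TATAAA were in neither window on either strand and in 12.4% of all windows. The AP-1 letters TGANTCA were likewise in neither and in 6.75% of all. The cAMP response letters TGACGTCA were in neither and in 1.55% of all, and the GC box letters GGGCGG were in neither and in 32.7% of all. RefSeq lists 2 windows for Hgf and 7 for Bdnf, and counts per gene do not show which start was read.

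Pdgfra (ENSMUSG00000029231, GRCm38 chr5:75152292-75198215, plus strand) was read at every age, and no difference between ages passed the test. Its level was 170.2 and 348 CPM in newborn sums of experiments 1 and 2, 147 and 179 CPM in young sums, and 141 and 242 CPM in old sums. The 3 ages overlapped, and the sum of experiment 2 was the higher at each age. The mean was 259 ± 126 CPM in newborn, 163 ± 22.6 CPM in the young and 191 ± 71.7 CPM in the old sums (SD, n = 2 each). The log2 fold change was -0.67 ± 0.46 (SE) for young over newborn (edgeR adjusted p = 0.624), 0.23 ± 0.46 for old over young (adjusted p = 1) and -0.44 ± 0.46 for old over newborn (adjusted p = 0.770). In the newborn sum of experiment 2, 30.7% of the reads of Pdgfra came from 1 cell, which held 15252 of 49631. Without newborn experiment 2, the old-over-newborn log2 fold change was 0.17, with the opposite sign, and that of young over newborn was -0.062. The antisense genes Gm42802 and Gm42803 overlap Pdgfra, and Gm16263 overlaps Fgf10.

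The share of cells with a read of Pdgfra was lower in old than in newborn cells on all 9 plates, while the level in CPM was lower on 7 of 9. Plates are parts of the 2 experiments and not replicates, so counts of plates are a description for every gene. Over both experiments the share was 36.5% in newborn cells (91 of 249, 95% exact interval 30.6 to 42.9%), 30.5% in young cells (24.8 to 36.7%) and 24.2% in old cells (18.9 to 30.1%). The intervals, by Clopper and Pearson, cover counting error only and not the draw of mice. Within experiments 1 and 2 newborn cells had shares of 29.7 and 48.4%, young cells 21.8 and 42.3% and old cells 18.3 and 30.7%, so the ages overlapped between experiments. Without thinning the pooled shares were 39.4, 32.9 and 26.2% in the same order. The median number of genes per thinned cell ran in the same direction within each experiment, and its part in the shares was not tested. In the cells that had a read, the median level of Pdgfra was 542 CPM in newborn, 441 CPM in the young and 614 CPM in the old cells. Across the 9 plates the share ran from 20 to 52.2% of newborn, 10.3 to 54.2% of young and 3.70 to 42.9% of old cells.

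Pdgfrb (ENSMUSG00000024620, GRCm38 chr18:61045150-61085061, plus strand) had a higher level in each adult sum than in either newborn sum, but neither difference passed the test after adjustment. The level was 21.4 and 25.05 CPM in newborn sums, 36.8 and 87.8 CPM in young sums and 85.8 and 75.3 CPM in old sums of experiments 1 and 2. Young and old sums overlapped, and the young sum of experiment 1 was the closest to newborn. Old sums averaged 80.5 ± 7.45 CPM and newborn sums 23.2 ± 2.60 CPM, a 3.47-fold difference (log2 1.79 ± 0.50, edgeR unadjusted p = 0.0157, adjusted p = 0.216). Young sums averaged 62.3 ± 36.0 CPM, 2.68-fold the newborn mean (log2 1.42 ± 0.50, edgeR adjusted p = 0.317), and old over young was 0.37 ± 0.49 on the log2 scale (adjusted p = 1). Without young experiment 2 the young-over-newborn log2 fold change was 0.67. By DESeq2 the old-over-newborn difference passed, with an adjusted p of 0.0079; over all 15 alternatives it ran from that value to 0.688.

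The share of cells with a read of Pdgfrb showed no such order. It was 13.9 and 23.1% of newborn cells, 11.97 and 36.5% of young cells and 15.1 and 25.4% of old cells in experiments 1 and 2, so experiment 2 had the larger share at each age and the 3 ages overlapped. The level in CPM was higher in old than in newborn cells on 9 of 9 plates, and the share on 6 of 9. In the cells with a read the median level was 64.1 CPM for 51 newborn cells, 120.3 CPM for 59 young cells and 159 CPM for 56 old cells. These cells are not replicates, and their medians are a description.

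Pdgfrb is also a gene of mural cells, the pericytes and smooth muscle cells of vessels, so 9 mural markers were read beside it. Their summed level was 31.2 and 131 CPM in newborn, 120.3 and 174 CPM in the young and 111 and 81.9 CPM in the old sums of experiments 1 and 2. Rgs5, a defining pericyte gene, had 0 reads in all 6 sums, and Myh11 and Notch3 had 0 reads in the adult sums. Most of the adult sum of the list came from Kcnj8 and Abcc9, the subunits of a potassium channel, at 2.45 ± 3.46 and 0.589 ± 0.833 CPM in newborn sums, 105 ± 22.9 and 34.3 ± 10.8 CPM in young sums and 69.3 ± 25.9 and 14.2 ± 5.46 CPM in old sums. Acta2, the actin of smooth muscle, was highest in newborn sums, at 54.6 ± 56.5 CPM. Cspg4 and Mcam also had their highest means at that age, 9.90 ± 4.61 and 11.4 ± 2.15 CPM. For young cells these 2 means were 0 and 0.0197 CPM, and for old cells 0.317 and 2.16 CPM. Des had its lowest mean in newborn cells, at 1.46 CPM, against 6.19 CPM for young cells and 2.55 CPM for old cells, with overlapping ages. After thinning, 130 of 735 cells held a read of at least 1 of the 9 markers, 16 held reads of 2 and none of 3 or more. Kcnj8 was read in at least 11.1% of the cells behind each adult sum, against at most 3.30% for either newborn sum. The part of these genes in the level of Pdgfrb was not tested.

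**Figure D2:**
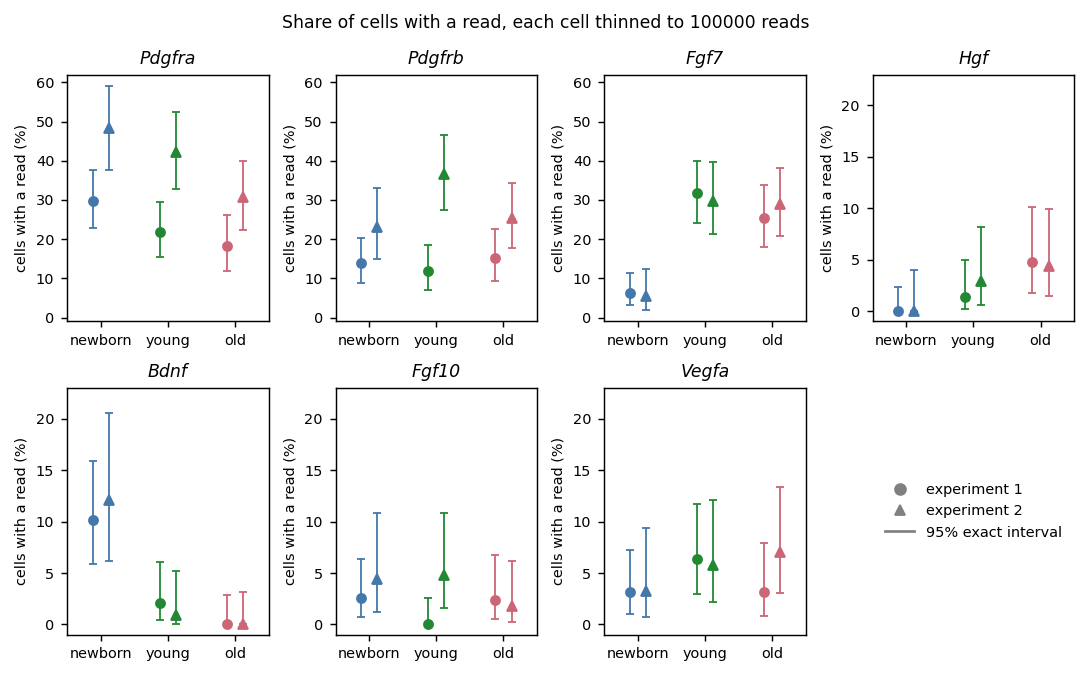
Share of cells with at least 1 read of each gene (vertical axis, percent) after thinning to 100000 reads per cell, by age (horizontal axis). Circles are experiment 1, triangles experiment 2 and bars exact 95% binomial intervals; the adult shares of Fgf7 ran between 25.4 and 31.7% and its newborn shares were 6.33 and 5.49%, and the shares of Pdgfra and Pdgfrb were higher in experiment 2 at every age.

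Fgf7 (ENSMUSG00000027208, GRCm38 chr2:126034658-126091185, plus strand), the keratinocyte growth factor, had the highest adult level of the 5 growth factors, also per kilobase of exon. It stood at 50.9 and 20.4 CPM in newborn sums, 236 and 171 CPM in young sums and 222 and 227 CPM in old sums. Neither adult age overlapped newborn, and young and old overlapped. Young sums averaged 203 ± 46.0 CPM and newborn sums 35.7 ± 21.6 CPM, a 5.69-fold difference (log2 2.51 ± 0.50, edgeR unadjusted p = 0.0041, adjusted p = 0.152). Old sums averaged 224 ± 3.59 CPM, 6.28-fold the newborn mean (log2 2.65 ± 0.51, edgeR unadjusted p = 0.0033, adjusted p = 0.125). Neither passed the threshold in edgeR; DESeq2 gave adjusted p-values of 3.8e-05 for young over newborn and 1e-05 for old over newborn, and limma on the mean of log2(CPM + 1) over cells gave 0.0087 and 0.013. Over all 15 alternatives the highest were 0.428 for young over newborn and 0.336 for old over newborn. Old over young was 0.14 ± 0.48 on the log2 scale (edgeR adjusted p = 1). Without newborn experiment 1 the log2 fold changes were 3.31 for young over newborn and 3.45 for old over newborn. The lowest of all 15 alternatives were 2.00 for young over newborn, without newborn experiment 2, and 1.97 for old over newborn.

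The share of cells with a read of Fgf7 differed in the same direction. A read was found in 6.33 and 5.49% of newborn cells, 31.7 and 29.8% of young cells and 25.4 and 28.9% of old cells. The share was higher in young than in newborn cells, and in old than in newborn cells, on 9 of 9 plates. The level in CPM was higher on 8 of 9 plates in both comparisons. On 1 plate of experiment 1 it was 194 CPM in newborn, 187 CPM in young and 89.9 CPM in old cells, without TMM factors. The 15 newborn cells with a read had a median of 708.4 CPM, the 80 young ones 540 CPM and the 68 old ones 616 CPM. In newborn experiment 2, 61.4% of the Fgf7 reads came from 1 cell, and in experiment 1, 37.6% did. Fgf7 lies within Fam227b, a gene on the opposite strand, and the strand setting of the counts is not given in the sources used here.

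Hgf (ENSMUSG00000028864, GRCm38 chr5:16553495-16620152, plus strand), hepatocyte growth factor, was not read in any newborn cell. It had 0 reads in both newborn sums, 710 and 906 reads (4.65 and 6.78 CPM) in young sums and 5616 and 4986 reads (38.0 and 27.7 CPM) in old sums of experiments 1 and 2. The ages did not overlap and stood in the same order in both experiments. Old cells were at least 3827-fold higher than newborn cells, with newborn set to a floor of 3 reads over both sums (edgeR unadjusted p = 0.00033, adjusted p = 0.0405). Young cells were at least 665-fold higher than newborn cells on the same floor, with an edgeR adjusted p of 0.0576. Old sums averaged 32.9 ± 7.28 CPM and young sums 5.72 ± 1.50 CPM, a 5.75-fold difference (log2 2.52 ± 0.82, edgeR unadjusted p = 0.0351, adjusted p = 0.910). The floor allows for counting error in the reads, not for which cells happened to be sorted. Most nonzero counts were even, as where both mates of a pair are counted, and with a floor of 3 pairs in place of 3 reads these bounds would be lower.

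The reads of Hgf came from few cells. They were found in 0 of 249 newborn cells, where 3 cells would be 1.205% and the exact 95% upper limit is 1.47%, in 2 of 142 and 4 of 104 young cells, and in 8 of 126 and 5 of 114 old cells. Thinned to equal depth, the counts were 2 and 3 young cells and 6 and 5 old cells. A read was present on 0 of 9 plates for newborn, on 4 for young and on 8 for old cells. In the young sum of experiment 2, 97.1% of the 906 reads came from 1 cell, while in old sums the top cell held 39.1 and 34.5%. With the top cell of every gene left out of each sum, the old-over-newborn adjusted p was 0.107; with the experiment as a replicate block it was 0.163; and with any 1 of the 6 sums left out it was 0.0932 to 0.211. With library size alone in place of TMM it was 0.0540. Over all 15 alternatives it ran from 3.1e-19 (DESeq2) to 0.211. The predicted genes Gm43489 and Gm42975 overlap Hgf.

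Bdnf (ENSMUSG00000048482, GRCm38 chr2:109674700-109727007, plus strand), brain-derived neurotrophic factor, ran the other way and was not read in any old cell. It had 9028 and 6890 reads (43.7 and 48.3 CPM) in newborn sums, 2002 and 1662 reads (13.1 and 12.4 CPM) in young sums and 0 in both old sums. The ages did not overlap, and the sums of each age lay close together. Old cells were at least 5023-fold lower than newborn cells, with old set to the floor of 3 reads (edgeR unadjusted p = 8.6e-05, adjusted p = 0.0223). Old sums were at least 1395-fold lower than young sums on the same floor, but the edgeR adjusted p was 0.517. As for Hgf, these bounds do not cover which cells were sorted. Young reads came from 4 of 246 cells (1.63%, exact 95% interval 0.445 to 4.11%). The exact 95% upper limit for old cells, 1.53%, lay within that interval. Young sums averaged 12.8 ± 0.481 CPM and newborn sums 46.0 ± 3.30 CPM, a level 3.60-fold lower in young (log2 -1.85 ± 0.57, edgeR unadjusted p = 0.0300, adjusted p = 0.297).

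The cells with a read of Bdnf were spread over the newborn plates and were single cells in the young. There were 16 of 158 and 11 of 91 newborn cells with a read, 3 of 142 and 1 of 104 young cells, and 0 of 240 old cells, where 3 cells would be 1.25% and the exact 95% upper limit is 1.53%. Newborn cells with a read were on all 9 plates, young ones on 3 and old ones on none. All 1662 reads in the young sum of experiment 2 came from 1 cell, and 84.6% of those in experiment 1 did. Among newborn cells with a read, the level was 109 to 1024 CPM with a median of 447 CPM, and the top cell held 9.12% of the reads. Thinning changed none of these counts of cells. The old-over-newborn adjusted p was 0.0944 with the experiment as a replicate block, 0.0959 to 0.127 with any 1 of the 6 sums left out, and 0.197 without the top cell of each gene, and it was under the threshold with library size alone (0.0211). Over all 15 alternatives it ran from 1.2e-22 (DESeq2) to 0.197. An antisense transcript, Gm45346, overlaps Bdnf, and without the strand setting its reads cannot be told apart from those of Bdnf.

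**Figure D3:**
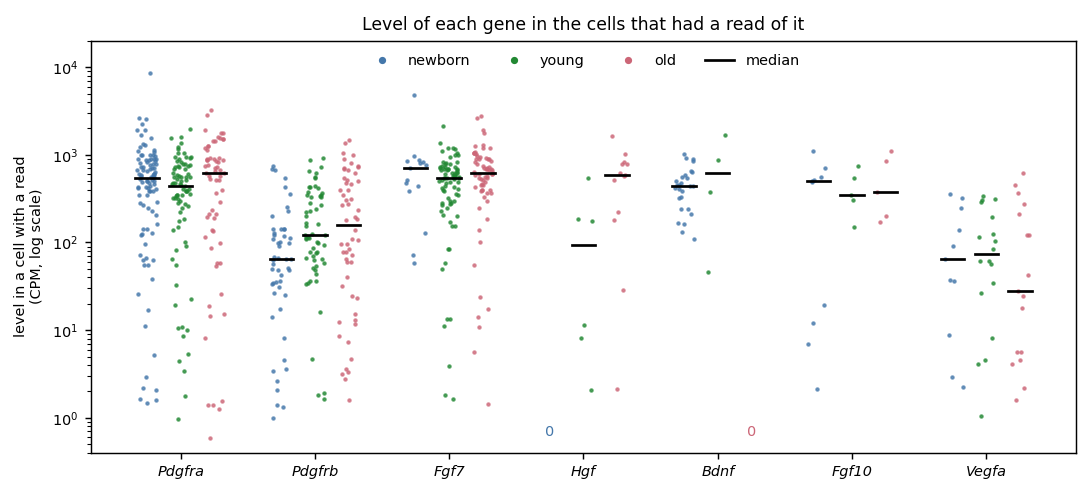
Level of each gene in the single cells that had a read of it, in CPM of the cell (vertical axis, log scale), for newborn, young and old cells (colours; left to right within each gene). Each point is a cell, black lines are medians and a 0 marks no cell; the median of Pdgfrb was 64.1, 120.3 and 159 CPM in newborn, young and old cells, and that of Fgf7 was 708.4, 540 and 616 CPM.

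Fgf10 and Vegfa were read in few cells, and with 2 sums per age the test did not tell the ages apart. Fgf10 (ENSMUSG00000021732, GRCm38 chr13:118669791-118792115, plus strand), which like Fgf7 acts on epithelium, had 8.21 and 14.2 CPM in newborn sums, 0 and 35.4 CPM in young sums and 16.1 and 11.04 CPM in old sums. The young sums were the lowest and the highest of the 6. A read was found in 4 and 4 newborn, 0 and 5 young and 3 and 2 old cells after thinning. The log2 fold changes were 0.66 ± 2.70 for young over newborn, -0.38 ± 2.69 for old over young and 0.28 ± 2.69 for old over newborn, with edgeR adjusted p-values of 0.974, 1 and 0.990. In each of the 5 sums with reads, 1 cell held 41.7 to 70.3% of them.

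Vegfa (ENSMUSG00000023951, GRCm38 chr17:46016993-46032369, minus strand), the vascular growth factor that low oxygen is known to induce, had 3.86 and 5.29 CPM in newborn sums, 11.1 and 3.10 CPM in young sums and 5.59 and 29.2 CPM in old sums. The highest value, old experiment 2, had 50.6% of its 5260 reads from 1 cell. Old over newborn was 3.81-fold (log2 1.93 ± 1.25, edgeR adjusted p = 0.557) and old over young 2.45-fold (log2 1.30 ± 1.23, adjusted p = 1), while young over newborn was 0.63 ± 1.21 on the log2 scale (adjusted p = 0.931). The old-over-newborn log2 fold change was 0.29 without old experiment 2 and 2.69 without old experiment 1. A read was found among 3.16 and 3.30% of newborn cells, 6.34 and 5.77% of young cells and 3.17 and 7.02% of old cells, with overlapping intervals. In cells with a read the median level was 65.4 CPM in newborn, 73.0 CPM in the young and 28.0 CPM in the old cells. Those of the adult ages were the lowest among the genes read at that age.

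Divided by exon length, so that genes can be set against each other, the order of the genes differed with age. In newborn sums Pdgfra led at 25.9 ± 12.6 CPM per kilobase, followed by Fgf7 at 10.99 ± 6.64, Bdnf at 7.40 ± 0.531, Pdgfrb at 4.24 ± 0.474, Fgf10 at 2.43 ± 0.915 and Vegfa at 1.07 ± 0.236, with Hgf at 0. Of these neighbours only Fgf7 and Bdnf overlapped between sums. In young sums Fgf7 led at 62.6 ± 14.2 CPM per kilobase, ahead of Pdgfra at 16.2 ± 2.25 and Pdgfrb at 11.4 ± 6.57; Fgf10 (3.84 ± 5.44), Bdnf (2.06 ± 0.0774), Vegfa (1.66 ± 1.32) and Hgf (0.795 ± 0.209) followed. Each young neighbour below Fgf7 overlapped the next. In old sums Fgf7 was again first at 69.0 ± 1.10 CPM per kilobase, then Pdgfra at 19.1 ± 7.16 and Pdgfrb at 14.7 ± 1.36, which overlapped. Hgf (4.57 ± 1.01), Vegfa (4.07 ± 3.90) and Fgf10 (2.95 ± 0.779) came next; Vegfa overlapped both of the others, which did not overlap each other, and Bdnf was last at 0.

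In most cells few of the 7 genes were read together. After thinning, 43.8% of newborn, 33.3% of young and 40.4% of old cells held a read of none, and 1 cell of 735 held a read of 4. Both receptors were read in 21 newborn, 14 young and 13 old cells, where the product of their shares, taken within each experiment and added, gives 16.7, 19.8 and 12.4. Fgf7 was read together with Pdgfrb in 4 newborn, 19 young and 18 old cells (products 2.55, 16.7 and 13.2) and with Pdgfra in 9, 23 and 16 cells (products 5.39, 22.9 and 16.0). These counts share the depth and the dropout of each cell and carry no test. Hgf and Fgf7 were both read in 1 young and 3 old cells (products 1.53 and 2.97). Hgf and Bdnf were read together in no cell, but young was the only age with reads of each, and its product was 0.0711. No gene had a mean within-sum correlation with Pdgfra, Pdgfrb or Fgf7 of 0.3 or more among the 3548 genes detected in 10% or more of the cells in each sum, and the other 4 genes were read in too few cells for the comparison.

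Of the receptors and ligands that pair with these genes, 13 of 16 had enough reads to be tested and 0 passed in any comparison with edgeR. For old over newborn 5 of them had an unadjusted p under 0.05, DESeq2 called 5 and limma 3, beside 15.2, 17 and 8.48% of all genes tested. For young over newborn these counts were 4, 4 and 1, beside 13.3, 14.1 and 6.55% of all genes, and for old over young 2, 2 and 0, beside 4.85, 6.28 and 0%. Fgfr1, the FGF receptor that fibroblasts are known to carry, was at 126 and 124 CPM in newborn, 69.4 and 82.2 CPM in the young and 41.4 and 54.6 CPM in the old sums. The 3 ages did not overlap, and the log2 fold change of old over newborn was -1.38 ± 0.29 (edgeR adjusted p = 0.137). Fgfr2, whose epithelial form binds Fgf7 and Fgf10, was at 82.1 ± 39.1 CPM in newborn, 47.1 ± 5.48 CPM in the young and 50.7 ± 1.73 CPM in the old sums; counts per gene do not separate its splice forms. Fgfr4 averaged 42.1 ± 9.29 CPM in newborn, 29.0 ± 7.08 CPM in young and 33.2 ± 5.36 CPM in the old, and Fgfr3 was at most 3.09 CPM in any sum. The decoy receptor gene Fgfrl1 had 7.54 and 23.5 CPM in newborn, 5.61 and 11.3 CPM in the young and 0.487 and 0.0890 CPM in the old sums (old over newborn log2 -5.75 ± 1.57, edgeR adjusted p = 0.210), from 3 to 12 cells an age.

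Receptors for the other factors were sparse. Met, the receptor for Hgf, was at 4.49 and 19.2 CPM in newborn, 12.3 and 2.84 CPM in the young and 0 and 0 CPM in the old sums, with reads in 4 newborn, 3 young and 0 old cells. Ntrk2, the receptor for Bdnf, was at 1.13 and 9.43 CPM in newborn, 52.9 and 30.9 CPM in the young and 19.5 and 23.2 CPM in the old sums. The young sums were thus above both other ages, with reads in 9 newborn, 16 young and 8 old cells, and young over newborn was 7.94-fold (edgeR adjusted p = 0.349). Ngfr, the shared neurotrophin receptor, was at most 0.366 CPM in any sum.

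Kdr, the main receptor for Vegfa, had 0 reads in newborn sums, 5.29 and 3.19 CPM in the young and 6.90 and 13.7 CPM in the old sums, from 3 young and 5 old cells. On the floor of 3 reads the old sums were at least 1202-fold higher than the newborn sums (edgeR adjusted p = 0.117). That bound does not cover which cells were sorted. Kdr was read in 2.38 and 1.75% of old cells, and the exact 95% upper limits for newborn cells were 2.31 and 3.97%. In old sums 1 cell held 75.3 and 82.8% of the reads. The 6 endothelial markers, Kdr among them, summed to 23.5 and 5.64 CPM in newborn, 81.9 and 44.4 CPM in the young and 74.2 and 63.2 CPM in the old sums; Cdh5, Tie1 and Emcn had 0 reads at all ages, and the part of the others in the level of Kdr was not tested. Flt1 was read in 1 newborn cell. Nrp1, a co-receptor for Vegfa, was at 90.5 and 93.0 CPM in newborn sums, 18.2 and 32.6 CPM in young sums and 22.2 and 44.4 CPM in old sums, with newborn apart from both adult ages. The log2 fold change of young over newborn was -1.85 ± 0.52 (edgeR adjusted p = 0.249) and that of old over newborn -1.46 ± 0.51 (adjusted p = 0.277).

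**Figure D4:**
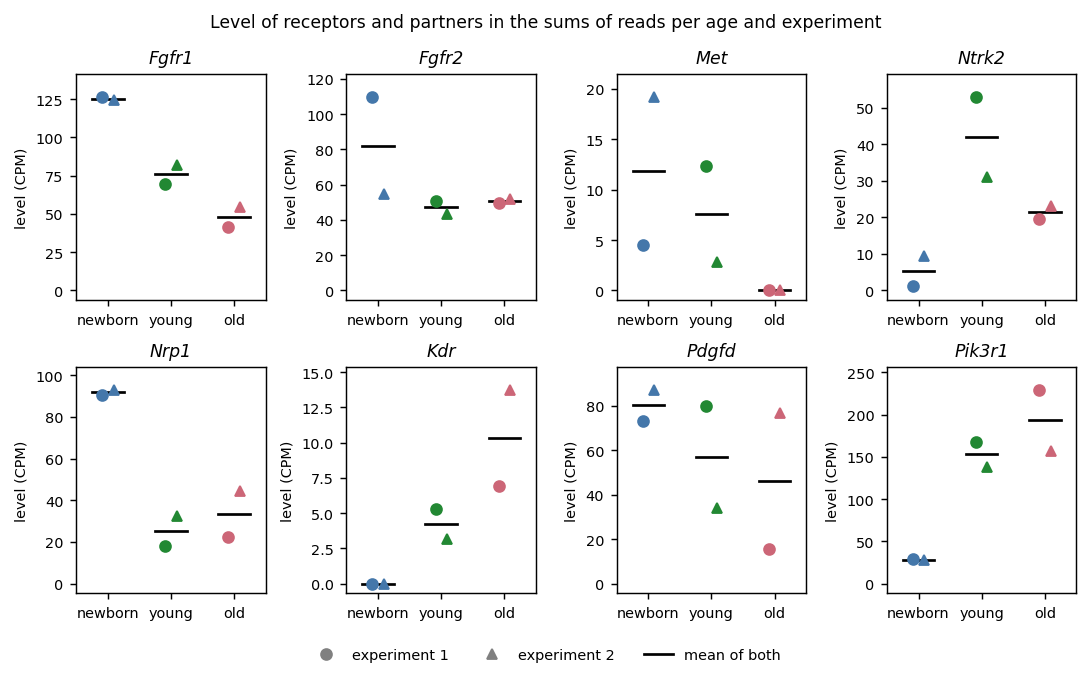
Level of 8 receptors and partners in CPM (vertical axis, linear, one scale per panel) in newborn, young and old sums (horizontal axis), with circles for experiment 1, triangles for experiment 2 and lines for the mean of both. Fgfr1 stood at 41.4 and 54.6 CPM in old and at 126 and 124 CPM in newborn sums, and Pik3r1 at 229 and 157 CPM in old and at 28.7 and 27.6 CPM in newborn sums.

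Among the PDGF ligand genes only Pdgfd, whose product acts through Pdgfrb, was read at every age in both experiments above 1 CPM. It was at 73.1 and 87.1 CPM in newborn, 80.0 and 34.2 CPM in the young and 15.6 and 76.9 CPM in the old sums, and the ages overlapped. Pdgfa was at most 12.8 CPM, Pdgfc was read in 3 young cells of experiment 2 alone, and Pdgfb had 0 reads in all 6 sums.

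Downstream of the receptors, 1 of 14 adaptor and signalling genes passed the test between old and newborn cells, beside 0.935% of all genes. It was Pik3r1, the regulatory subunit that brings phosphoinositide 3-kinase to activated receptors. Pik3r1 was at 28.7 and 27.6 CPM in newborn sums, 168 and 138 CPM in young sums and 229 and 157 CPM in old sums. Newborn did not overlap the adult ages. Old over newborn was 6.86-fold (log2 2.78 ± 0.31, edgeR adjusted p = 0.0350) and young over newborn 5.43-fold (log2 2.44 ± 0.30, edgeR adjusted p = 0.0507). The old-over-newborn adjusted p was 0.0661 with the experiment as a replicate block, 0.0595 with library size alone and 0.114 to 0.182 with 1 sum left out, while DESeq2 gave 6.95e-18. Newborn cells held a read of it in 8.86 and 8.79% of cases, young cells in 27.5 and 37.5% and old cells in 31.0 and 22.8%. The median log2 fold change of the 14 genes was 0.29 for old over newborn, against -0.08 for all genes tested.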

How the data were processed

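The authors deposited raw read counts per gene and cell, 1 table per plate, and the values were whole numbers; 74.9% of nonzero counts were even, as where both mates of a pair are counted. Per the submitters' processing notes, FastQC and the build GRCm38 are named, with no role stated. Not given in the sources used here: the aligner, the counter, its strand setting and how it treated shared reads. Of 1049 labelled columns on 11 tables, 5 without a value were left out. In 2 pairs of tables the same wells correlated at 0.994, against at most 0.433 for other pairs, so such a pair counted as 1 plate with 2 sequencing runs, whose reads were added, leaving 861 wells. A cell needed 50000 reads on genes, 1000 detected genes and a mitochondrial share of 25% or less; among newborn wells 249 of 256 passed, among young wells 246 of 287 and among old wells 240 of 318. Gene identifiers were looked up in the GENCODE annotation of GRCm38, which held 51633 of those common to the tables, with 99.9% of the reads.

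Reads were added per age and experiment, and the 6 sums, 2 per age, were tested with R 4.3.3 and edgeR 4.0.16: low counts were removed by filterByExpr, libraries scaled by TMM, and a robust quasi-likelihood model fitted with age alone. The common coefficient of variation between sums was 1.13, and 3 residual degrees of freedom were left. Standard errors are the absolute log2 fold change over the root of the F statistic. The alternatives were DESeq2 1.42.0, limma 3.58.1, other scaling, filters and depth, single cells or sums left out, and the experiment as a block. The labels give the experiment as a number shared by the ages, and the deviations of the sums of an experiment correlated across genes at -1.7e-04 (young and newborn), 0.0125 (old and young) and 0.0107 (old and newborn). Shares carry exact 95% Clopper-Pearson intervals. All 7 genes were named, then their ligands and receptors (1 of these is not reported here), and of the other lists each gene past the threshold. The genes and lists were chosen with earlier results of these data known.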

Additional observations from a re-analysis of the deposited data

Results flagged for a closer look

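The wells left out for few reads, few genes or a high mitochondrial share held some reads of these genes, in data outside every comparison. In 7 newborn wells left out, with 3899171 reads in all, there were 304 reads of Bdnf in 1 well and 138 of Pdgfra in 1 well. In 41 young wells, with 7263316 reads, there were 36 reads of Pdgfrb in 3 wells and 4 of Fgf7 in 1 well. In 78 old wells, with 13845748 reads, there were 24 reads of Vegfa in 3 wells, 8 of Pdgfrb in 2 wells and 6 of Fgf7 in 3 wells. Hgf had 0 reads in the wells left out at all 3 ages, and Bdnf had 0 in those of young and old mice.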

How the results depend on the processing

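All 168 alternative values of the share of cells with a read stayed within the interval of the reported share. Of 315 alternative log2 fold changes of the 7 genes 265 kept their direction and their side of the threshold. Another 22 changed sign, 11 gained a pass and 17 lost one. Those 17 were all for Hgf or Bdnf in old over newborn, the only comparisons that passed in the reported fits. With the experiment as a replicate block, 25 genes passed for young over newborn and 51 for old over newborn, and 0 of the 7, against 130, 156 and 2 in the reported fits; Fgf10 turned to -0.26 for young over newborn and 0.91 for old over young. Leaving out 1 sum at a time left 0 to 42 genes for young over newborn and 0 to 47 for old over newborn, with 0 of the 7 called; the lone sum of that age is then assumed to vary like the other ages. Thinned cells gave 257 and 293 genes, and Hgf and Bdnf still passed there for old over newborn. Leaving out the top cell of each gene gave 246 and 272 genes, and in that setting 0 of the 7 passed for old over newborn. DESeq2 called 2358, 1047 and 2828 genes for young over newborn, old over young and old over newborn, and 3, 2 and 4 of the 7 (Fgf7, Hgf and Bdnf; Hgf and Bdnf; those of the first with Pdgfrb). Limma called 1092 and 1414 genes against newborn, with 2 of the 7 for young over newborn (Fgf7 and Bdnf) and 3 for old over newborn (Fgf7, Hgf and Bdnf). Without a filter 2 genes passed for old over young, and Hgf, 1 of the 7, for young over newborn; with library size alone 1 of the 7, Bdnf, passed for old over newborn. Why the tools differed was not tested.

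Signs turned where no difference had passed. On the log2 scale Fgf10 for young over newborn was -0.44 with thinned cells and -0.091 by limma, and -13.86 to 1.66 with a sum left out; for old over newborn it was -0.071 with library size alone, -0.47 with thinned cells, -0.35 without the top cell, -0.12 by limma and -0.062 to 0.73 with a sum left out; for old over young it was -1.38 to 14.14 with a sum left out. The extreme values were fitted against sums at 0. With a sum left out, Vegfa was -0.56 to 1.28 for young over newborn and -0.35 to 2.49 for old over young; Pdgfra was -0.21 to 0.56 for old over young and -0.88 to 0.17 for old over newborn; Pdgfrb was -0.12 to 1.13 and Fgf7 -0.075 to 0.39 for old over young. By limma, old over young was -0.59 for Pdgfra, -0.20 for Pdgfrb, -0.24 for Fgf7 and -0.035 for Vegfa. With 2 sums per age and Hgf and Bdnf read in at most 27 cells of an age, levels of the rarer genes depend on which cells were drawn.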

Other observations

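Genes of 4 further lists had 0 calls by edgeR in any comparison. Over all genes tested, 13.3% had an unadjusted p under 0.05 for young over newborn, where DESeq2 called 14.1% and limma 6.55%. For old over young these shares were 4.85, 6.28 and 0%, and for old over newborn 15.2, 17 and 8.48%. Of 20 further FGF ligand genes 9 had enough reads to be tested. For young over newborn 3 had an unadjusted p under 0.05, DESeq2 called 4 and limma 1. For old over young these counts were 0, 1 and 0, and for old over newborn 3, 3 and 1. The median log2 fold change of the 9 genes was -1.70 for young over newborn, -0.16 for old over young and -0.69 for old over newborn. For all genes tested it was -0.07, 0 and -0.08. Of 12 feedback genes of the ERK pathway, which growth factor receptors are known to induce, 11 were tested. For young over newborn 4 had an unadjusted p under 0.05, and DESeq2 and limma each called 3. For old over young these counts were 0, 0 and 0, and for old over newborn 2, 2 and 3. The medians of the 11 genes were -0.94, 0.01 and -0.98 in the same comparisons. The 14 genes found of a hypoxia list had medians of 0.13, -0.01 and 0.28. For young over newborn 3 of them had an unadjusted p under 0.05, DESeq2 called 3 and limma 1. For old over young these counts were 1, 1 and 0, and for old over newborn 4, 4 and 0. Of 9 genes of the dermal papilla, a source of Fgf7 and Fgf10 in the hair follicle, 6 were tested. For young over newborn 3 had an unadjusted p under 0.05, and DESeq2 and limma each called 3. For old over young these counts were 0, 1 and 0, and for old over newborn 2, 2 and 3. The fitted medians of the 6 genes were -9.28, 2.16 and -4.52. With genes at or under the floor of 3 reads in 1 age set to it, the medians were -7.41, 1.41 and -4.52. The value of 1.41 leaves out 1 gene under the floor at both ages.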
